A study of Cicer arietinum with 11 samples.

Results

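The transcripts described here are those of chickpea (Cicer arietinum) that reached at least 5 RPKM in the shoot apical meristem and at least 5 times the highest of the other 10 libraries of the series. There were 194 of them among 34760 transcripts, or 0.558% of all. They were chosen by these values, so their meristem level and their distance from the other libraries are given as a description, with no test. RPKM is a read count scaled to transcript length and library size, so levels can be set beside each other between transcripts.

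All 11 mRNA libraries came from the genotype ICC4958, with 1 library for each tissue or stage. The meristem came from plants of 20 days of age. The other libraries were the germinating seedling, young leaves of mature plants, flower buds of the stages labelled 1 to 4 and flowers of the stages labelled 1 to 4. Growth was in a culture room for seedlings and in the field for mature plants. Site and plant age cannot be told apart from tissue. How many plants went into a library, and how the meristem was separated from the young tissue around it, is not given in the sources used here. With 1 library per tissue, a level in the meristem has no replicate check, and in such bulk samples fewer cells of a type and less RNA per cell cannot be told apart.

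The shoot apical meristem is the small dome of dividing cells at the tip of the shoot from which leaves, stem and, later, flowers arise. In Arabidopsis, homeobox genes of the KNOX class hold its cells undifferentiated, and the transcription factor WUSCHEL and the CLAVATA peptide and receptors set the size of its stem cell pool through a feedback loop. Flower buds begin as floral meristems on its flanks and use many of the same regulators. No gene names accompany the IDs, and 0 of the 34760 matched an entry among 29938 chickpea genes in RefSeq (assembly Cicar.CDCFrontier_v2.0). Transcripts are therefore named by ID alone, no meristem, leaf or floral marker list could be checked, and what the transcripts encode is not stated.

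"Confined" proved too strong a word for most of the 194, which are called meristem-high transcripts below. None of them was without reads in all of the other 10 libraries, 139 had reads in all 11, and 66 were at 1 RPKM or more in each of the other 10. Over the 194, the meristem level ran from 5.64 to 3273.5 RPKM, with a median of 44.2 and quartiles of 19.8 and 105.9. At least 100 RPKM was reached by 50 transcripts. The highest other level ran from 0.355 to 151 RPKM with a median of 5.85, and it stayed under 1 RPKM for 6 transcripts. The ratio of the meristem to the highest other library had a median of 7.0 and a maximum of 33.5. It was at least 10 for 37 transcripts, at least 20 for 8 and under 6 for 66.

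Depth set the counting error of these ratios. Reads were recovered from the RPKM values, and the libraries held 14536530 (flower bud 2) to 35643139 (flower bud 3) reads, with 31511021 in the meristem. The exact 95% counting interval of the ratio lay wholly at or above 5 for 107 of the 194, while for the other 87 its lower bound fell below 5, down to 1.79. These intervals cover counting error only. Without the germinating seedling, the rule would pick 320 transcripts in place of 194, as leaving out another library can only add transcripts. Rescaling by median-of-ratios factors left 120 of the 194. The meristem had the largest factor (1.19), so every ratio fell and no transcript could be added. Young leaves had the smallest (0.760), so ratios to young leaves fell most.

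**Figure D1:**
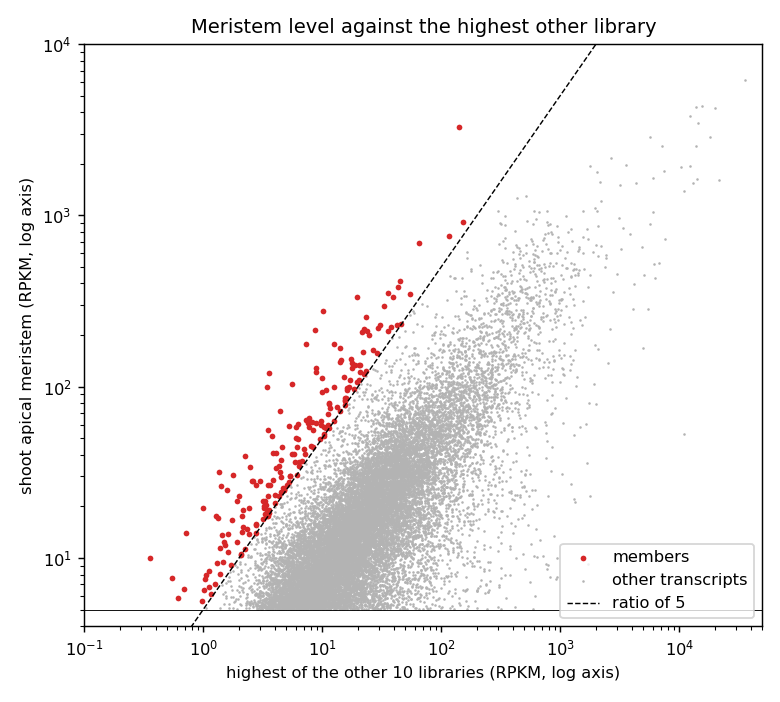
Level in the shoot apical meristem (RPKM, log axis) against the highest of the other 10 libraries (RPKM, log axis) for each transcript at 5 RPKM or more in the meristem; red points are the 194 meristem-high transcripts, grey points the other transcripts, the dashed line a ratio of 5. The red points lie close along the dashed line, with a median ratio of 7.0, and 1 of them stands far above the rest at 3273.5 RPKM.

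Together the 194 transcripts took 622830 reads, or 1.98% of the meristem library. In the other libraries they took between 0.0659% (flower bud 4) and 0.187% (flower 4) of the reads. Within the meristem, Ca_TC18471 alone supplied 14.3% of the reads of the group and the 10 highest transcripts 39.95%.

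Ca_TC18471 stood apart in level, at 3273.5 RPKM in the shoot apical meristem, against 141.9 in the seedling and 1.06 in young leaves. Flower buds 1 to 4 held it at 2.76, 9.69, 8.75 and 4.43 RPKM, and flowers 1 to 4 at 12.9, 14.04, 9.36 and 45.3. Its trace in other tissue thus lay mainly in the seedling and in flower 4. The ratio to the seedling was 23.1, with a counting interval of 22.2 to 23.9. Its ratio to the highest other library was 18.6 with median-of-ratios scaling and 37.1 with quantile normalization, both outside this interval.

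Behind it, Ca_TC16678 had 920 RPKM in the meristem, against 3.22 in the seedling and 67.8 in young leaves. In flower buds 1 to 4 it had 84.7, 18.4, 59.5 and 5.31 RPKM, and in flowers 1 to 4 it had 4.51, 40.1, 2.34 and 151. The stages of a class thus differed widely for this transcript, and its level in flower 4 lay far above that in flower 3. Its ratio to flower 4 was 6.09 (counting interval 5.94 to 6.25). Scaling moved its ratio to the highest other library outside this interval. The ratio was 4.93 with median-of-ratios scaling, under the threshold of 5, and 8.39 with quantile normalization.

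Another pattern was seen for Ca_TC23267, with 752 RPKM in the meristem, against 5.76 in the seedling and 80.5 in young leaves. Flower buds 1 to 4 had 23.4, 41.2, 117 and 18.7 RPKM, and flowers 1 to 4 had 34.7, 42.7, 2.98 and 5.08. This transcript was lowest in flowers 3 and 4, and its highest other library was flower bud 3.

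Ca_TC05332 had 686 RPKM in the meristem, against 14.6 in the seedling, 21.1 in young leaves, at most 33.9 in flower buds and 5.43, 17.6, 6.16 and 65.3 in flowers 1 to 4. Ca_TC17592 had 416 RPKM in the meristem, against 0.638 in the seedling, 3.88 in young leaves, at most 13.4 in flower buds and 2.40, 5.44, 7.496 and 45.2 in flowers 1 to 4. Both shared a peak in flower 4 outside the meristem. Ca_TC34210 had it most sharply: it was at 348 RPKM in the meristem and 54.8 in flower 4, against 4.09 in the seedling, 1.27 in young leaves, 1.03 at most in flower buds and 0.697 at most in flowers 1 to 3. In flower bud 2 it had no read.

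The remaining 4 of the top 10 had 384 (Ca_TC34274), 352 (Ca_TC08603), 334 (Ca_TC18862) and 332 RPKM (Ca_TC10786) in the meristem. In flower 4 the same transcripts, in this order, had 43.1, 31.1, 19.7 and 39.3 RPKM. Flower 4 was their highest other library, except for Ca_TC08603, which had 35.9 RPKM in the seedling.

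**Figure D2:**
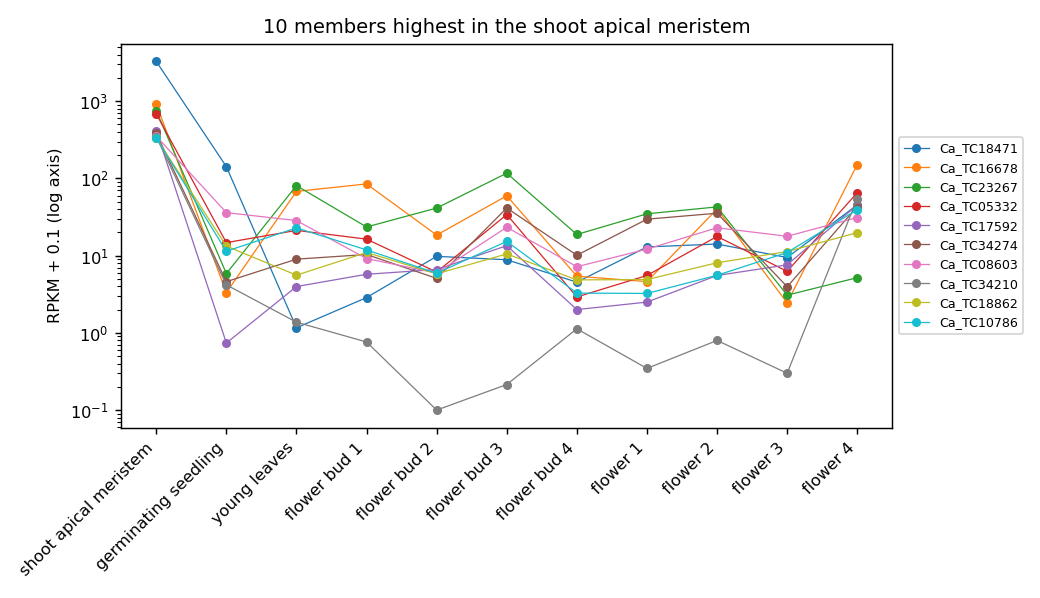
Level (RPKM + 0.1, log axis) of the 10 meristem-high transcripts with the highest meristem level, in the shoot apical meristem and the other 10 libraries, 1 line per transcript. Levels drop from 332 RPKM or more in the meristem to between 0 and 151 RPKM elsewhere, and all 10 lines are higher in flower 4 than in flower 3.

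In the deposited values, the largest ratio to the highest other library belonged to Ca_TC17419. It had 120 RPKM in the meristem against 3.59 in young leaves, 2.37 in the seedling, at most 2.15 in flower buds and at most 2.08 in flowers. Its ratio was 33.5 (counting interval 26.6 to 42.8). Ca_TC27671 followed at 99.3 RPKM in the meristem against 3.43 in young leaves, and it had no read in the seedling, flower bud 4, flower 1 or flower 3. Ca_TC30611 had 275 RPKM in the meristem against 10.2 in flower 4, Ca_TC29783 215 against 8.73 in flower 4, and Ca_TC14580 178 against 7.35 in the seedling. Like Ca_TC18471, whose ratio was 23.1, these 5 were at 99.3 RPKM or more in the meristem. The order depended on scaling. With median-of-ratios scaling the ratio of Ca_TC17419 was 21.3, below that of Ca_TC22258 (24.1). With quantile normalization it was 24.7, below that of Ca_TC18471 (37.1).

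Among the 10 largest ratios, the other 4 belonged to transcripts with a lower meristem level. Ca_TC18997 had 31.9 RPKM in the meristem against 1.37 in flower 2, and Ca_TC31185 had 19.6 against 1.00 in young leaves. Ca_TC22258 had 10.03 RPKM in the meristem, 0.355 in flower 2 and 0.291 in flower bud 3, and no read in 8 libraries; its ratio of 28.3 rested on 2 reads in flower 2 and had a counting interval of 7.498 to 239. Ca_TC34035 had 13.96 RPKM in the meristem, 0.716 in the seedling and 0.229 in flower 4, with no read in the other 8, and its ratio of 19.5 had an interval of 6.42 to 96.6. No other meristem-high transcript lacked reads in as many libraries.

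Around the median of the group, Ca_TC19593 had 44.2 RPKM in the meristem and 6.09 in flower bud 3, Ca_TC30383 had 44.2 in the meristem and 4.59 in flower 4, and Ca_TC23278 had 44.4 in the meristem and 8.43 in the seedling. A typical member was thus a transcript of moderate level with a few RPKM elsewhere, and the place of that remainder differed from one transcript to the next.

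The place of the residual expression was uneven among the other 10 libraries. Flower 4 was the highest other library for 58 of the 194 (29.9%), the germinating seedling for 45 (23.2%), young leaves for 28 (14.4%) and flower bud 3 for 26. Flower bud 1 held this place for 14 transcripts, flower 3 for 9, flower 2 for 6, flower bud 4 and flower 1 for 3 each, and flower bud 2 for 2. By class this made 76 transcripts for flowers, 45 for flower buds and 73 for the vegetative tissues. Over all transcripts with a read outside the meristem, flower bud 1 was most often the highest of the 10 (20.2%), and flower 4 was so for 8.87%. The shares of meristem-high and of all transcripts are set side by side as a description. For most of the 194 the highest other library was not far above the next, with a median ratio of 1.305 between them. It was at least 2-fold above the next for 36, of which 16 had it in the seedling, 11 in flower 4, 7 in young leaves and 2 in flower bud 3.

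**Figure D3:**
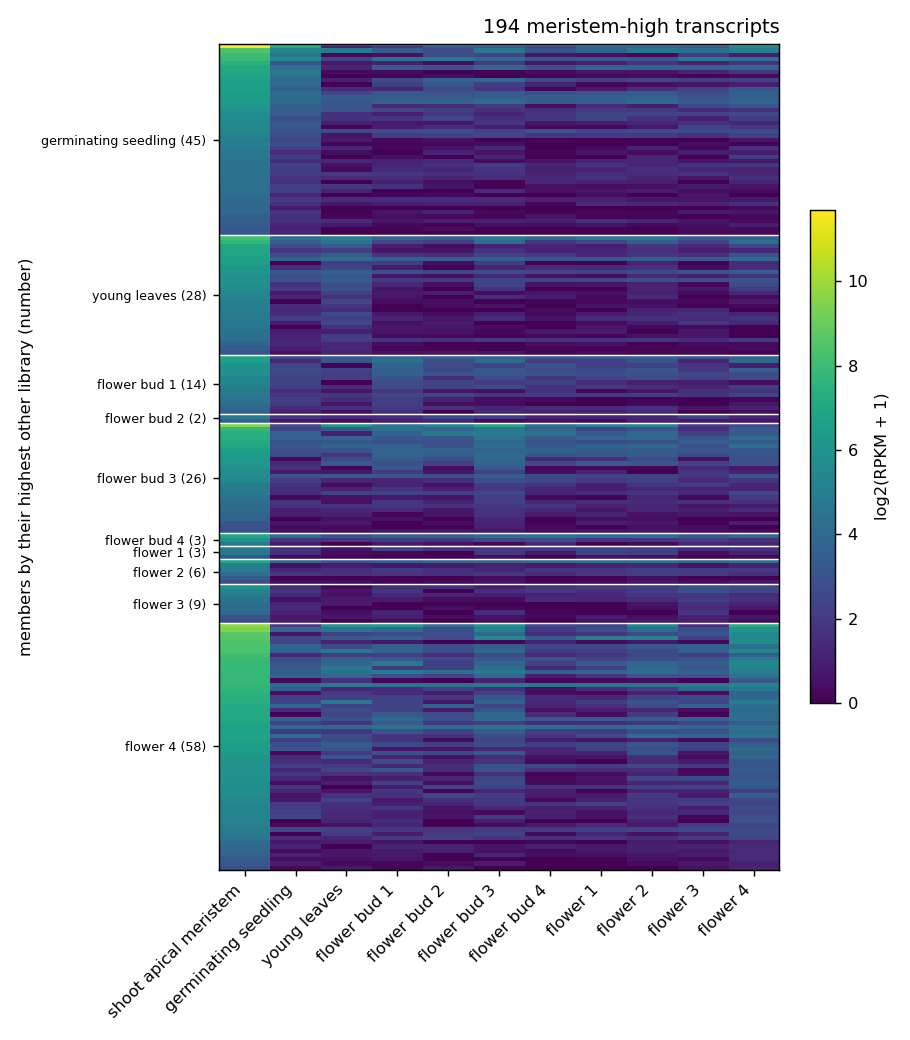
Level as log2(RPKM + 1) of the 194 meristem-high transcripts (rows) in the shoot apical meristem and the other 10 libraries (columns); rows are grouped by their highest other library, with the number of transcripts in brackets, and ordered by meristem level within each group. The meristem column is the brightest in every row, as the rule requires, and the group of 58 with flower 4 as the highest other library holds many of the brightest rows.

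The median level over the 194 was 3.14 RPKM in flower 4, 2.64 in flower bud 3 and 2.53 in the germinating seedling. It was 1.91 in young leaves, 1.90 in flower bud 1, 1.83 in flower 2 and 1.60 in flower 3. The lowest medians were those of flower bud 2 (1.36), flower 1 (1.26) and flower bud 4 (1.16). Interquartile ranges of all 10 overlapped, so neighbours in this order differed by less than the spread among transcripts. The same transcripts are in every library, so this spread does not measure the difference between libraries. As a share of the meristem level of the same transcript, the median was 8.52% in flower 4, 6.78% in the seedling, 6.20% in flower bud 3, 4.00% in flower 3 and 2.32% in flower bud 4. At least 5 RPKM was reached by 81 of the 194 in flower 4 and by 30 in flower 1. Reads were missing altogether for 9 transcripts in flower 4 and 7 in the seedling, against 28 in flower bud 2. In this shallowest library, 3 reads at the median length of the group correspond to 0.426 RPKM. Flower 1 lacked reads for 23 transcripts and flower bud 4 for 22, against 16 in flower 3, which was less deep than either.

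**Figure D4:**
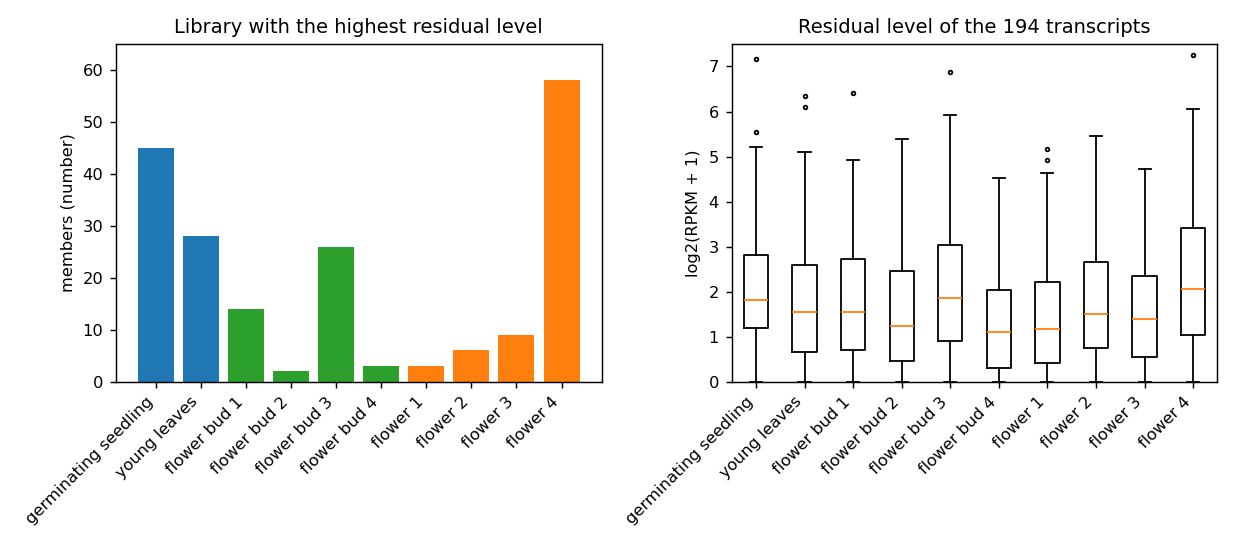
Left, number of the 194 meristem-high transcripts for which each library was the highest besides the meristem (blue vegetative, green flower bud, orange flower). Right, their level as log2(RPKM + 1) in each of these libraries, with the median, the quartiles, whiskers to 1.5 times the interquartile range and points beyond. Flower 4 has 58 transcripts and a median of 3.14 RPKM, flower 3 has 9 and a median of 1.60 RPKM.

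Transcripts grouped by their highest other library had different meristem levels, as a description. Transcripts with flower 4 as their highest other library had a median of 89.5 RPKM in the meristem and 10.2 in flower 4. In the same 58 transcripts the median was 3.25 RPKM in flower 3, 2.97 in flower 2, 1.60 in flower 1 and 4.29 in flower bud 3. The 45 with the seedling highest had medians of 31.7 RPKM in the meristem, 5.88 in the seedling and 1.01 in young leaves. The 28 with young leaves highest had medians of 39.97 RPKM in the meristem, 4.12 in young leaves and 1.65 in the seedling, and the 45 with a flower bud highest had a median of 40.4 in the meristem. Levels in the seedling and the young leaves had the lowest rank correlation of any pair of the 10 libraries over the 194 (Spearman 0.42, a description across transcripts that share their libraries and the bound set by the rule).

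Flowers 3 and 4 differed although their stage labels are next to each other. Of the 194 transcripts, 146 were higher in flower 4 than in flower 3 and 46 were lower; over all 34760 transcripts 57.2% were higher in flower 4. With reads in both libraries, 171 transcripts had a median log2 ratio of flower 4 to flower 3 of 0.77, against 0.12 over all transcripts. A level at least 2-fold higher in flower 4 than in flower 3 was found for 72 of these 171, and at least 2-fold lower for 11. Each stage is 1 library, so this difference has no replicate check.

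Across the 58 transcripts with flower 4 highest, 41 had no more than 50% of that level in flower 3, and 34 had no more than 50% in each of flowers 1, 2 and 3. Their next highest library was flower bud 3 for 17, young leaves for 12 and the seedling for 9. Across the 194, the level in flower 4 also followed that in the meristem more closely in rank (Spearman 0.82) than did the level in any other library (0.56 to 0.73), again as a description over transcripts chosen with a bound on each ratio.

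Flower 3 was the highest other library for 9 transcripts, all of modest level. Ca_TC31280 was the highest of them there, with 36.8 RPKM in the meristem, against 2.53 in the seedling, 0.607 in young leaves, 2.60, 0, 2.00 and 2.77 in flower buds 1 to 4, and 1.77, 3.20, 6.74 and 4.62 in flowers 1 to 4. Flowers 3 and 4 were thus its highest libraries outside the meristem. Its ratio to flower 3 was 5.45 (counting interval 3.59 to 8.62). The ratio to the highest other library was 4.09 with median-of-ratios scaling and 4.65 with quantile normalization, both under the threshold of 5. The 9 had a median of 17.6 RPKM in the meristem and 2.35 in flower 3, against 1.07 in flower 4. Their flower 3 levels rested on 25 reads for Ca_TC31280, 49 for 1 other and 3 to 12 for the rest. Flower 3 was at most 1.63-fold above the next library. The 5 highest meristem-high transcripts in flower 3 each had a higher level in another library besides the meristem. Ca_TC13631 had 25.5 RPKM in flower 3 against 20.0 in flower 4, and 46.0 in the seedling. Ca_TC13296 had 25.03 RPKM in flower 3 against 35.6 in flower 4 and lay between 17.8 and 28.0 in the other 8, an even background under 211 in the meristem. Ca_TC08603, Ca_TC12731 and Ca_TC18955 had 17.7, 14.7 and 13.4 RPKM in flower 3, against 31.1, 20.3 and 24.5 in flower 4.

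**Figure D5:**
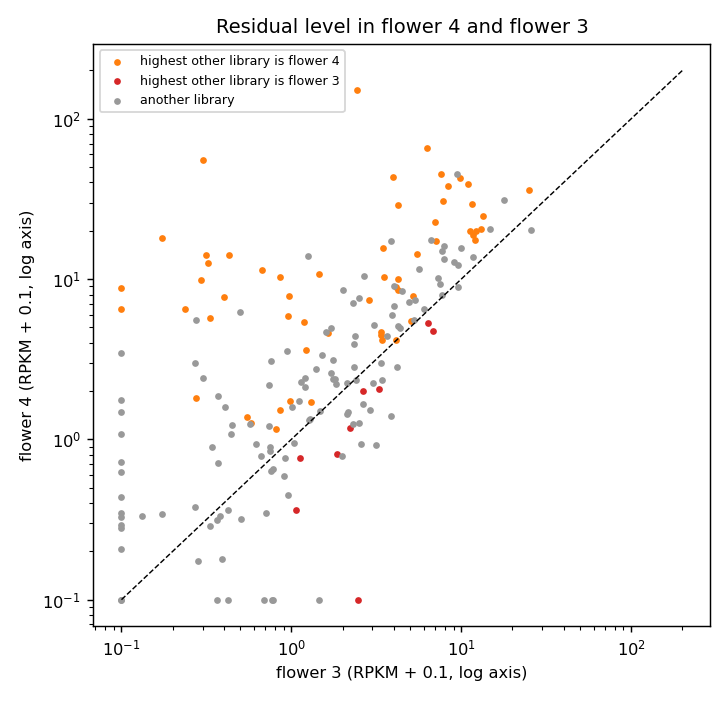
Level of the 194 meristem-high transcripts in flower 4 against flower 3 (RPKM + 0.1, log axes), coloured orange where flower 4, red where flower 3 and grey where another library was the highest besides the meristem; the dashed line marks equal levels. Most points, 146 of 194, lie above the line.

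Among the transcripts that shared a highest other library, 1 had the highest level there; transcripts of other groups could be higher in the same library. For the group of young leaves this was Ca_TC19148, with 297 RPKM in the meristem, 33.3 in young leaves and 18.2 in the seedling. Ca_TC03281 led the group of flower bud 1, with 96.6 RPKM in the meristem, 18.3 in flower bud 1 and 14.8 in flower bud 3. Of the 2 transcripts in the group of flower bud 2, Ca_TC13843 was the higher, at 25.1 RPKM in the meristem and 4.73 in flower bud 2. Ca_TC10689 led the 3 of flower bud 4, at 133 RPKM in the meristem and 20.6 in flower bud 4, with 11.7 to 19.0 in flower buds 1 to 3. Among the 3 of flower 1 it was Ca_TC32215, at 29.9 RPKM in the meristem and 4.51 in flower 1. Ca_TC12731 led the 6 of flower 2, with 121 RPKM in the meristem, 20.9 in flower 2 and 20.3 in flower 4.

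Whether the residual levels changed between reproductive classes was tested on the 8 flower bud and flower libraries. These also entered the rule, through the highest other level, so the tests are not independent of the choice of transcripts, although the rule sets no direction between flowers and flower buds. Stages stand in for replicates here, so p-values measure the spread between stages. Of the 194 transcripts, 162 had a mean of at least 0.5 RPKM over the 8 libraries and were tested, and 32 were not. Among the tested, flowers were above flower buds for 2 and below them for 4 (limma on log2(RPKM + 1), adjusted p under 0.05 and a log2 difference of at least 1), where 4.92% of all 32179 transcripts tested were called higher and 5.45% lower. As shares, 1.23% of the 162 were higher and 2.47% lower. With median-of-ratios scaling 62.0% of all calls were higher, against 47.4% as deposited. Flowers minus flower buds had a median log2 difference of 0.09 over the 162 and -0.16 over all tested.

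Ca_TC18046 had 4.15, 5.78, 3.37 and 15.6 RPKM in flowers 1 to 4, against 0.567, 0.661, 1.46 and 1.15 in flower buds 1 to 4. Every flower lay above every flower bud, by 1.88 ± 0.40 in log2 (SE; limma, adjusted p = 0.0161). Ca_TC04499 averaged 13.4 ± 6.22 RPKM in flowers and 3.19 ± 1.44 in flower buds (SD, n = 4 stages each), or 1.70 ± 0.38 higher in log2 (SE; limma, adjusted p = 0.0191). Flower 1, at 5.28 RPKM, lay just under flower bud 3, at 5.32. Both had flower 4 as their highest other library, and had 85.9 and 106.4 RPKM in the meristem. Without flower bud 2 the adjusted p-values of Ca_TC18046 and Ca_TC04499 in limma were 0.0501 and 0.0583.

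In the other direction, Ca_TC34287 had 0.106, 0.449, 0.515 and 0.842 RPKM in flowers 1 to 4, against 3.57, 8.13, 3.68 and 1.33 in flower buds 1 to 4, with a difference of -1.67 ± 0.39 in log2 (SE; limma, adjusted p = 0.0210). Without flower bud 3 its adjusted p in limma was 0.0544. It had 95.9 RPKM in the meristem and 16.0 in the seedling. Ca_TC10471 averaged 5.53 ± 2.96 RPKM in flowers and 17.2 ± 5.46 in flower buds (SD, n = 4 stages each), with a difference in log2 of -1.57 ± 0.38 (SE; limma, adjusted p = 0.0244). Leaving out flower bud 1 or flower bud 3 gave it adjusted p-values of 0.0628 and 0.0696 in limma. Ca_TC31564 averaged 1.00 ± 0.58 RPKM in flowers and 4.21 ± 1.03 in flower buds (SD, n = 4 stages each), or -1.41 ± 0.27 in log2 (SE; limma, adjusted p = 0.0102), and its call held in the 16 other settings tried. The flowers and flower buds did not overlap for Ca_TC34287, Ca_TC10471 and Ca_TC31564. For these, as for Ca_TC18046, this describes the same values that gave the call and adds no support to it. How common such a gap was over all tested transcripts was not counted. Ca_TC28779 was at the threshold, with 8.73 ± 3.98 RPKM in flowers and 20.4 ± 6.75 in flower buds (SD, n = 4 stages each) and a difference of -1.18 ± 0.35 in log2 (SE; limma, adjusted p = 0.0498). It lost its call in 13 of 16 other settings, among them without flower bud 2, 3 or 4 or flower 1, 3 or 4 (adjusted p of 0.0705 to 0.126 in limma).

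The late flowers (stages 3 and 4) were compared with the early flowers (stages 1 and 2) in the same way, taking the stage numbers as an order of development, which is an assumption. Of the 162 transcripts, 3 were higher and 2 lower in late flowers, where 3.07% of all tested transcripts were called higher and 3.22% lower (limma, 2 stages in each group, spread pooled over the 8 libraries). The median log2 difference of late minus early flowers was 0.29 over the 162 and -0.07 over all tested. Leaving out flower 1, 2, 3 or 4 ended each of the 5 calls (adjusted p of 0.0663 to 0.325 in limma). Without flower bud 2, Ca_TC13631, Ca_TC19148 and Ca_TC23267 lost theirs too, and without flower bud 1 Ca_TC13631 and Ca_TC23267 (adjusted p of 0.0525 to 0.0689 in limma).

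Ca_TC18955 had 13.4 and 24.5 RPKM in flowers 3 and 4, against 1.76 and 3.40 in flowers 1 and 2, or 2.46 ± 0.52 higher in log2 (SE; limma, adjusted p = 0.0319). Ca_TC23278 had 4.09 and 2.73 RPKM in flowers 3 and 4, against 0.237 and 0.682 in flowers 1 and 2 (a log2 gain of 1.59 ± 0.38, SE; limma, adjusted p = 0.0462). Ca_TC13631 had 25.5 and 20.0 RPKM in flowers 3 and 4, against 9.12 and 8.03 in flowers 1 and 2 (1.304 ± 0.311, SE; limma, adjusted p = 0.0473). All 3 were also above 8 RPKM in the germinating seedling.

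Ca_TC23267 had 2.98 and 5.08 RPKM in flowers 3 and 4, against 34.7 and 42.7 in flowers 1 and 2, or -3.00 ± 0.72 in log2 (SE; limma, adjusted p = 0.0479). Ca_TC19148 had 9.498 and 12.1 RPKM in flowers 3 and 4, against 23.9 and 25.5 in flowers 1 and 2 (-1.13 ± 0.26, SE; limma, adjusted p = 0.0414). These were the third and the eleventh highest of the 194 in the meristem.

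The meristem-high transcripts tended to be short. Recovered lengths ran from 103 to 3851 bases with a median of 485, against 1149 for all 19898 transcripts at 5 RPKM or more in the meristem and 736 for all transcripts. A recovered length is the shortest that turns every value into whole reads, so it can understate the true length where few libraries have reads. Among transcripts with reads in all 11 libraries the medians were 655 for the 139 meristem-high ones and 874 for all 30332. Under 200 bases lay 27.3% of the 194, against 9.35% of transcripts at 5 RPKM or more in the meristem and 19.8% of all transcripts. In short transcripts the same RPKM rests on fewer reads: 27 of the 194 had under 100 meristem reads.

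At the edges of the rule, Ca_TC20146, Ca_TC21042 and Ca_TC20149 lay just inside the ratio threshold, at ratios of 5.01, 5.01 and 5.02. Just outside it were Ca_TC26404, Ca_TC19360 and Ca_TC14189, at 4.98, 4.97 and 4.94. The lowest meristem levels inside were those of Ca_TC24957, Ca_TC12364 and Ca_TC32422, at 5.64, 5.87 and 6.16 RPKM. Ca_TC22407, Ca_TC20148 and Ca_TC32653 met the ratio but had 4.19, 3.77 and 3.69 RPKM in the meristem.

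The same rule applied to each other library in turn picked 395 transcripts for the germinating seedling, 69 for young leaves, 108 for flower bud 1 and 0 to 9 for each of the other 7. Within the 8 reproductive libraries, flower 4 was the highest for 44.3% of the meristem-high transcripts, against 16.7% of the seedling-high ones with reads there, 5.80% of the leaf-high ones and 12.9% of all transcripts. Flower 3 was the highest for 8.76% of the meristem-high transcripts, against 27.8% of the seedling-high ones and 12.5% of all. Flower 4 exceeded flower 3 for 146 of the 194 meristem-high transcripts (75.3%), and 46 were higher in flower 3. Among all 395 seedling-high ones, those without reads in either included, 166 (42.0%) were higher in flower 4 and 182 in flower 3. These shares describe single libraries, and their difference was not tested.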

How the data were processed

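Per the series text, the authors used NGS QC Toolkit to filter reads, aligned these to 34760 chickpea transcripts and deposited RPKM values, 1 file per library. The aligner, and how reads that fit several transcripts were counted, is not given in the sources used here. Near-identical transcripts are therefore uncertain. In each file 128 blank rows were left out. RPKM divides by the library total, so a few abundant transcripts lower all others.

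Library totals (14536530 to 35643139 reads), transcript lengths (at least 100 bases) and reads were recovered from the RPKM values as whole numbers, within 4e-09 of the value plus 3e-06 reads, for all 34703 transcripts above 0. The recovered reads summed to at least 99.95% of each total. Tested on 8000 simulated transcripts, this gave back 11 of 11 totals.

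Ratios have exact 95% conditional binomial intervals. Reproductive stages were tested in limma 3.58.1 (R 4.3.3), using log2(RPKM + 1) and an intensity trend, over all transcripts with a mean of at least 0.5 RPKM and Benjamini-Hochberg adjustment. A call needed an adjusted p under 0.05 and a log2 difference of at least 1; this scale understates changes of low transcripts.

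Transcripts named are the 10 highest in the meristem, the 10 with the largest ratio, the highest in each other library among transcripts with that library as their highest other, the 5 highest in flower 3 and in flower 4, the 3 nearest the median, those called by limma and those next to a threshold. The members, rules and tests were chosen with earlier results of these data known. Alternatives tried were other thresholds, scalings, pseudocounts, filters, thinning of reads, voom, the stage number as a block and leaving out each library.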

Additional observations from a re-analysis of the deposited data

Results flagged for a closer look

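For the 44 meristem-high transcripts named, flower buds and flowers were each taken as a group of 4 libraries. In 11 cases, 1 library stood far from the other 3 of its class by Dixon's 95% criterion. Chance flags about 1 in 20 groups, but many of the 44 were named for a high level in 1 library. This rate therefore does not apply to them. In flower 4 the level was high for Ca_TC18471 (45.3 RPKM), Ca_TC17592 (45.2 RPKM), Ca_TC34210 (54.8 RPKM), Ca_TC29783 (8.73 RPKM) and Ca_TC34035 (0.229 RPKM). Flower 3 stood out for Ca_TC13843 (3.78 RPKM) and flower 2 for Ca_TC22258 (0.355 RPKM). Flower bud 3 was high among flower buds for Ca_TC34274 (41.3 RPKM), Ca_TC29783 (1.25 RPKM), Ca_TC04499 (5.32 RPKM) and Ca_TC22258 (0.291 RPKM). The values of Ca_TC34035 and Ca_TC22258 rest on few reads. The other 3 libraries of the class had none for them, so any read would have been flagged. Over the 162 meristem-high transcripts with a mean of at least 0.5 RPKM in the 8 reproductive libraries, flower 4 stood out as high for 8.02% and flower bud 3 for 4.94%, against 1.44% and 0.618% of all 32179 such transcripts. With any stage counted, high or low, 5.56% of the 162 were flagged among flower buds and 11.7% among flowers. Over all 32179 these shares were 7.84% and 5.63%.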

How the results depend on the processing

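The number of meristem-high transcripts was 540 at a ratio of at least 3, 37 at a ratio of at least 10, 120 with median-of-ratios scaling and 107 where the lower counting bound had to reach 5. With a ratio of RPKM + 1 it was 135. Quantile normalization gave 164 transcripts, 154 of them among the 194. Reads thinned to the shallowest library gave 192, with 169 among the 194. The number ran from 195 to 320 when single libraries were left out, with 320 without the germinating seedling. Leaving out a library other than the meristem lowers no ratio, so this number could not fall below 194. For the same reason, the count of transcripts for any single library left in could only stay or rise. Of the 120 with median-of-ratios scaling, 25 had a flower bud and 42 a vegetative tissue as the highest other library. As deposited, these were 45 and 73 of the 194. A length of at least 200 bases, added after seeing the data, left 141 transcripts. Flower 3 was the highest other library for 4 of these, against 9 of the 194. Leaving out single libraries gave 45 to 162 for flowers (162 without the seedling, 45 without flower 4), 41 to 101 for flower buds (101 without the seedling, 94 without flower 4), 55 to 112 for vegetative tissues (112 without flower 4), 9 to 36 for flower 3 (36 without the seedling, 23 without flower 4, 14 without young leaves) and 58 to 95 for flower 4 (95 without the seedling). With scalings and thinning added after seeing the data, 134 to 139 of the 194 were higher in flower 4 than in flower 3. Among the transcripts named, median-of-ratios scaling and quantile normalization both gave ratios under 5 for Ca_TC31280, Ca_TC13631, Ca_TC23278, Ca_TC20146, Ca_TC21042, Ca_TC24957 and Ca_TC32422. Only median-of-ratios scaling did so for Ca_TC16678, Ca_TC13843, Ca_TC12731, Ca_TC13296, Ca_TC18046, Ca_TC04499, Ca_TC34287 and Ca_TC20149.

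Between flowers and flower buds, 4 meristem-high transcripts were called higher with a pseudocount of 0.25, median-of-ratios scaling or quantile normalization, and 1 to 5 (1 without flower bud 2, 5 without flower bud 4 or flower 1) when single libraries were left out; lower calls ran from 1 (without flower bud 3) to 4. Over all transcripts 946 to 1831 were higher and 1104 to 2143 lower without single libraries (1001, 946 and 1000 higher without flower bud 1, 2 or 3). Median-of-ratios scaling moved the share of higher among all calls to 62.0%, against 47.4%, and the median log2 difference to -0.01, against -0.16. Same-numbered flower buds and flowers did not deviate together (correlations of -0.19 to -0.08), and with the stage number as a replicate block 1 transcript (Ca_TC31564) was called lower, while Ca_TC34287, Ca_TC10471 and Ca_TC28779 had adjusted p-values of 0.0545, 0.0784 and 0.088 in limma.

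Late against early flowers gave 1 higher call with a pseudocount of 0.25 or voom, 1 lower call with no filter, either scaling or voom, and 0 lower without the intensity trend. Without single libraries, 0 to 4 were higher and 0 to 3 lower, and over all transcripts 2 to 1062 higher and 1 to 1096 lower. Without flower 1, 2, 3 or 4 the counts over all were 2, 240, 376 and 636 higher. The cause was not tested. Depth limits levels under about 0.4 RPKM in flower bud 2.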
